A study of Mus musculus with 15 samples.

Results

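The genes described here are a set of 8, called members, named for the Nodal signalling pathway in mouse embryonic stem cells (mESC). They are Nodal, Gdf3, Tdgf1, Acvr2b, Lefty1, Lefty2, Smad7 and Apela. Apela is counted in the set but signals through a receptor of its own, so its changes are not changes of the Nodal pathway itself. They were chosen by gene symbol and are 8 of the 55228 genes listed for every library, and all 8 were measured and tested in every comparison. RNA-seq was performed on 15 libraries of 81K1, a line made from OG2 mESC, in which doxycycline switches on an shRNA directed at Smarcb1, which belongs to the core of the chromatin remodelling complexes called BAF. The 5 groups of 3 libraries were untreated cells (ctrl) at 48 h and 240 h and cells given 1 µg/ml doxycycline daily (kd) for 48 h, 72 h and 240 h. All groups carried the shRNA cassette in the Rosa26 locus, and all were kept on gelatine in serum medium with LIF. The line goes back to 1 clone, K1, so effects of that clone and of the knockdown cannot be told apart beyond the contrast of treated with untreated cells. A doxycycline-treated line without the shRNA was not analysed here, so effects of doxycycline and of the knockdown cannot be told apart. The 72 h kd cells had no control of their own time and were set against the 48 h ctrl cells, which therefore serve in 2 comparisons. The labels do not say that the libraries of a group came from separate cultures, and the p-values then measure only the spread between these libraries, which may be technical.

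Nodal is a secreted ligand of the TGF-beta family. It is cut by convertases such as Furin, binds type I and type II activin receptors together with a co-receptor of the EGF-CFC family, and acts through Smad2, Smad3 and Smad4 with partners such as Foxh1. Nodal and the Lefty genes are themselves classic targets of this signal, and Lefty proteins and Smad7 restrain it. In the early mouse embryo the pathway patterns the epiblast and induces mesendoderm, and mESC in culture express many of its genes.

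The members lie on autosomes of mm10 (GRCm38), with positions as deposited and identifiers and strand from GENCODE M21. Nodal (ENSMUSG00000037171.6) spans chr10:61417972-61425338 on the plus strand, Gdf3 (ENSMUSG00000030117.5) chr6:122605403-122610087 on the minus strand and Tdgf1 (ENSMUSG00000032494.12) chr9:110939603-110946158 on the minus strand. Acvr2b (ENSMUSG00000061393.14) spans chr9:119402118-119434995 on the plus strand. Apela (ENSMUSG00000079042.10) spans chr8:65028417-65037336 on the minus strand. Lefty2 (ENSMUSG00000066652.5, chr1:180893108-180899103) and Lefty1 (ENSMUSG00000038793.8, chr1:180935022-180938400) are neighbours on the plus strand. All 8 are protein-coding, and the values cover the whole span, exons, introns and untranslated parts together. Apela shares most of its span with Gm45886, a non-coding transcript gene on the same strand, and Acvr2b contains the antisense gene Gm47320. The other 6 members overlap no listed gene.

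Lefty1 and Lefty2 are close copies whose values differed in this study, so annotated transcripts were searched for stretches of 75 bases, the length of a read, that cannot separate them. Of the distinct 75-base windows in the annotated Lefty1 transcripts, 197 of 1682 (11.7%) also occurred in Lefty2, and these made up 7.77% of the 2535 windows of Lefty2. The remaining windows of each gene had no exact copy in a transcript of another gene. Tdgf1 shared 161 of 2690 windows (5.99%) with its pseudogene Tdgf1-ps1, and Apela shared 223 of 929 (24.0%) with Gm45886. Nodal, Gdf3 and Acvr2b shared none.

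Nodal and Apela were higher in every knockdown group than in its control, as shown further on, and the 250 bases before their transcription starts are given for that reason (RefSeq, GRCm38.p6, minus strand for Apela and plus strand for Nodal). Capitals mark CG dinucleotides, of which Nodal has 3 and Apela 5, against a median of 6 in all 32851 windows of this length.
Nodal, chr10:61417722-61417971: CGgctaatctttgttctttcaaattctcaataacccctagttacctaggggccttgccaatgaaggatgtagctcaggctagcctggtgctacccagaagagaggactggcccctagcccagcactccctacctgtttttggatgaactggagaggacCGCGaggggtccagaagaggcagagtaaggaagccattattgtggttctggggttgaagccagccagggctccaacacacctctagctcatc
Apela, chr8:65037337-65037586: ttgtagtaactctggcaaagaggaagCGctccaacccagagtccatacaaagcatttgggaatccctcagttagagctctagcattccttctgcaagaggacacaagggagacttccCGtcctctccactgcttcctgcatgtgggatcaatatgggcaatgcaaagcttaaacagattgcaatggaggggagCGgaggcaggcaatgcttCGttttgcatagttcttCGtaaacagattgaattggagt
Both strands were searched for AATNCACA, the core that Foxh1 recognises, for the Smad palindrome GTCTAGAC and for the short Smad box CAGAC. Neither window held any of the 3, which were present in 3.18%, 0.167% and 42.2% of all windows. The windows of Tdgf1 and Acvr2b, the other members searched, held 1 CAGAC each and neither of the longer motifs. A match describes the letters only, and its absence from these windows says nothing of binding elsewhere.

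The deposited values are FPKM, reads scaled by gene span and by library total, and the read numbers behind them could be recovered. Library totals lay between 11074998 and 14515300 reads. Each member rested on 321 to 7419 reads per library, so counting error was small for all of them and largest for Acvr2b. Smarcb1 kept 17.97% of its control level at 48 h, 15.7% at 72 h and 19.3% at 240 h. All 9 embryonic stem cell markers examined were above 0.5 FPKM in each group, with summed levels of 1804 to 1944 FPKM (48 h) and 1624 to 1805 FPKM (240 h) for ctrl cells, and of 1848 to 2153, 2609 to 2713 and 1782 to 1845 FPKM for the 3 knockdown groups in order of time. Single markers went different ways: Dppa5a rose at 72 h by 1.04 on the log2 scale (limma adjusted p = 4.57e-05), while at 240 h Esrrb fell by 0.78 (adjusted p = 8.91e-05) and Zfp42 fell by 0.58 (adjusted p = 0.00031). Of these 9, Tdgf1 is also a member. This sum and the marker sums below add values divided by the gene span. They therefore lean towards genes of short span, here 1126 bases for Dppa5a against 160512 for Esrrb. Summed fibroblast (feeder) markers were at 1.36 to 1.58 FPKM in the 240 h kd libraries and at 0.859 to 0.976 FPKM in their controls, without overlap, where the 3 collagen genes were higher, at ratios of 3.53 to 4.53, and Thy1 was lower, at 0.699. The other groups held 0.525 to 0.929 FPKM of them. Visceral endoderm markers, some of whose cells express Lefty1 in the embryo, likewise had a higher sum in 240 h kd. Over 6 genes it was 0.696 to 0.787 FPKM, against 0.412 to 0.470 FPKM in its controls, and the groups overlapped at 48 h and 72 h. At 240 h Amn and Cubn were higher without overlap, at ratios of 2.01 and 2.87, while Hhex (0.989), Afp (2.18) and Ttr (0) overlapped. Cer1 of this list was at 0 in every library. The summed primitive endoderm markers, 7 genes, were lower in the knockdown at each time without overlap, at 0.253 to 0.327 FPKM after 48 h and 0.175 to 0.244 after 72 h against 0.596 to 0.636 in the earlier controls, and at 0.638 to 0.728 after 240 h against 0.788 to 0.861 in the later ones. This sum followed Sox7, with ratios to the control of 0.294, 0.0926 and 0.435, whereas at 240 h Gata4, Gata6, Pdgfra and Dab2 were higher in kd without overlap, at ratios of 1.29 to 2.38. The part of these markers in the members' values was not tested. The library 48 h kd replicate 2 stood apart from the other libraries of its group, with chi-square values of recovered reads, divided by the degrees of freedom, of 11.3 and 9.14 against them, where the other pair of that group had 1.51, and it held 2.35% mitochondrial reads, the highest share. The library 240 h ctrl replicate 3 also stood apart, with 8.89 and 5.02 against 2.23 for the other pair, and held 0.469%, the lowest share. In the remaining groups the pairs had 1.30 to 4.45. Member values of the knockdown comparisons that moved by over 1.5 times or crossed an adjusted p of 0.05 without either library are given below beside them.

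Levels between members were compared only per exon length, since the deposited values divide by a span that is mostly intron in some genes. On this scale, the same as FPKM but with the merged exon length in place of the span, Tdgf1 was the most abundant member in each group, at 178 ± 3.37 in 48 h ctrl and at most 211 ± 6.91, in 72 h kd (SD, n = 3). In 48 h ctrl it was followed by Lefty2 at 98.98 ± 1.95, Lefty1 at 89.6 ± 6.88, Apela at 58.3 ± 1.31, Gdf3 at 42.5 ± 0.175, Nodal at 24.5 ± 0.716, Smad7 at 19.9 ± 0.614 and Acvr2b at 7.72 ± 0.146. No 2 neighbours in that order overlapped between libraries, and 240 h ctrl gave the same order without overlap. In 48 h kd Apela stood second at 108 ± 1.27, and Lefty1 and Lefty2 behind it overlapped. In 72 h kd Lefty1 was second at 187 ± 5.31 and Apela came next at 151 ± 3.54, and in 240 h kd Nodal at 48.1 ± 0.934 stood above Gdf3 at 44.7 ± 0.608. The values below are FPKM as deposited and serve only to compare a gene with itself.

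**Figure D1:**
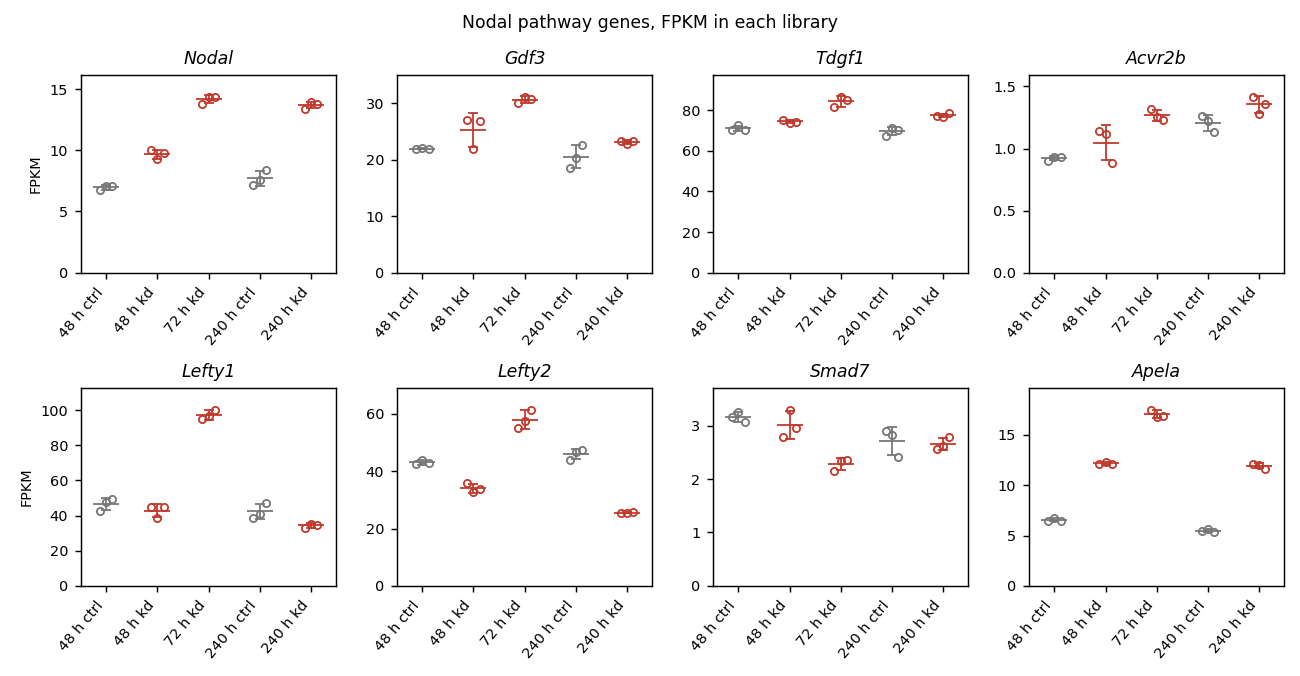
FPKM of the 8 members in each of the 15 libraries, on axes that start at 0; open circles are libraries, grey for ctrl and red for kd, and bars give the mean and SD of 3 libraries. Nodal and Apela lie above the controls in all kd groups, while Lefty1 and Lefty2 peak in 72 h kd, at 94.7 to 100.2 and 55.0 to 61.4 FPKM.

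The first comparison asked which members differed from the untreated cells 48 h after induction. Of the 8, 1 rose, Apela, and none fell. A gene was called when the limma adjusted p was under 0.05 and the log2 fold change beyond 0.58 in either direction. By that rule 3.99% of 11420 tested genes were called, 1.99% higher and 2.01% lower. In the second comparison, of 72 h kd with 48 h ctrl, 3 members rose, Apela, Lefty1 and Nodal, and none fell, where 13.5% of 11440 genes were called, 8.23% higher and 5.30% lower. At 240 h, 2 members rose, Apela and Nodal, and 1 fell, Lefty2, where 8.91% of 11401 genes were called, 4.79% higher and 4.12% lower. The median log2 fold change of the 8 members was 0.11 at 48 h, 0.45 at 72 h and 0.15 at 240 h, beside 0.0057, 0.009 and -0.0016 over all genes tested. With the adjusted p alone, 3, 8 and 5 members passed, as did 16.1%, 55.0% and 33.8% of all genes. Between the control groups, 240 h against 48 h, none of the 8 was called in limma, where 0.475% of genes were called, 54 genes that came to 2 to 10 with any 1 library left out and to 0 with the replicate block, and 2 members passed on the adjusted p alone, as did 3.44% of genes, Acvr2b at 0.35 and Apela at -0.25 on the log2 scale. Without 240 h ctrl replicate 3 both had an adjusted p of 0.0737.

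**Figure D2:**
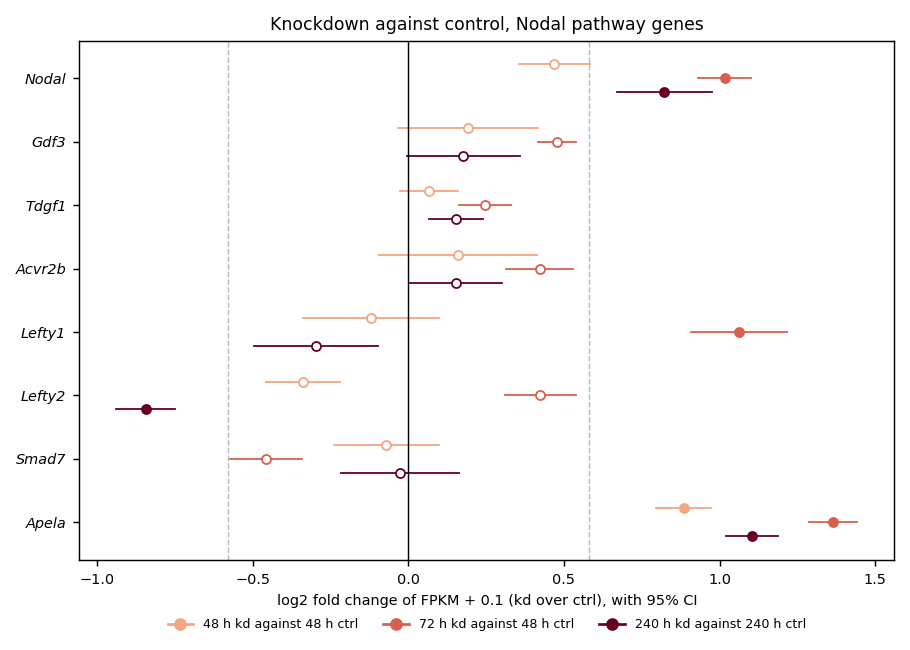
Log2 fold change of each member (FPKM + 0.1) for kd over ctrl at 48 h, 72 h and 240 h, with 95% confidence intervals from limma; filled points were called and dashed lines mark a log2 fold change of 0.58 in either direction. Apela is filled at all 3 times, from 0.88 to 1.36, and Lefty1 and Lefty2 lie on both sides of 0.

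Among the ligands, Nodal itself was at 6.73, 7.06 and 7.10 FPKM in 48 h ctrl and at 9.99, 9.27 and 9.78 FPKM in 48 h kd. In 72 h kd it was at 13.8, 14.4 and 14.4 FPKM, in 240 h ctrl at 7.18, 7.57 and 8.38 and in 240 h kd at 13.4, 13.9 and 13.8. The libraries of each kd group lay above all control libraries, and those of 72 h and 240 h kd above those of 48 h kd. The log2 fold change was 0.47 at 48 h (limma adjusted p = 0.00363, SE 0.05), under the fold threshold. It was 1.02 at 72 h (adjusted p = 3.39e-05, SE 0.03) and 0.82 at 240 h (adjusted p = 0.000478, SE 0.06), both called. The effect at 240 h exceeded that at 48 h by 0.35 (95% CI 0.18 to 0.52, adjusted p = 0.013), and 240 h kd and 72 h kd differed by -0.05 (95% CI -0.12 to 0.02, adjusted p = 0.18).

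Gdf3, a ligand of the same family that also signals through the co-receptor Tdgf1, was at 21.9, 22.1 and 21.9 FPKM in 48 h ctrl and at 27.0, 21.8 and 26.9 in 48 h kd, where replicate 2 lay with the controls. In 72 h kd it was at 30.1, 31.2 and 30.7 FPKM, above all control libraries. In 240 h ctrl it was at 18.6, 20.3 and 22.6 FPKM and in 240 h kd at 23.4, 22.8 and 23.2. The groups of 240 h did not overlap, but the gap was smaller than the range within the controls. The log2 fold change was 0.48 at 72 h (limma adjusted p = 8.86e-05, SE 0.03), under the fold threshold, and 0.58 with the 240 h ctrl as control (adjusted p = 0.00144), just past it. At 48 h it was 0.19 (95% CI -0.03 to 0.42, adjusted p = 0.213) and at 240 h 0.18 (95% CI -0.0042 to 0.36, adjusted p = 0.118). Without 48 h kd replicate 2 the former was 0.29 (adjusted p = 0.00843), and without 240 h ctrl replicate 3 the latter was 0.25 (adjusted p = 0.021). Both were still under the fold threshold. The latter was 0.11 without 240 h ctrl replicate 1 (adjusted p = 0.199).

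Tdgf1 encodes Cripto, the EGF-CFC co-receptor of Nodal. It was at 70.6, 72.7 and 70.3 FPKM in 48 h ctrl, at 75.4, 73.9 and 74.5 in 48 h kd and at 81.5, 86.8 and 85.2 in 72 h kd. In 240 h ctrl it was at 67.5, 71.3 and 70.3 FPKM and in 240 h kd at 77.4, 76.6 and 78.5. The kd libraries lay above the control libraries at each time, by small margins. The log2 fold changes were 0.07 (adjusted p = 0.278), 0.25 (adjusted p = 0.00199) and 0.15 (adjusted p = 0.0207) at 48 h, 72 h and 240 h in limma, none of them past the fold threshold. At 240 h the adjusted p ran from 0.0329 to 0.0906 with 1 library left out, and was over 0.05 without 240 h ctrl replicate 2 or any 1 of the 240 h kd libraries.

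Acvr2b, a type II receptor for Nodal and activins, was the least abundant member. It was at 0.903, 0.930 and 0.935 FPKM in 48 h ctrl, at 1.14, 1.12 and 0.882 in 48 h kd and at 1.32, 1.26 and 1.23 in 72 h kd. In 240 h ctrl it was at 1.26, 1.23 and 1.14 FPKM and in 240 h kd at 1.42, 1.28 and 1.36. The untreated cells of 240 h overlapped the 72 h kd cells. Its log2 fold change was 0.42 at 72 h (limma adjusted p = 0.000702, SE 0.04), under the fold threshold, and 0.067 when 72 h kd was set against the 240 h ctrl (adjusted p = 0.334). At 48 h it was 0.16 (adjusted p = 0.346), or 0.0984 without 48 h kd replicate 1 and 0.27 without 48 h kd replicate 3 (adjusted p = 0.586 and 0.0678), and at 240 h 0.15 (adjusted p = 0.102). The antisense gene inside its span had at most 7 reads in a library.

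The Lefty genes encode secreted antagonists that bind Nodal and its co-receptors. Lefty1 was at 42.5, 48.0 and 49.2 FPKM in 48 h ctrl and at 45.1, 38.7 and 44.9 in 48 h kd, and these groups overlapped. It was at 94.7, 96.6 and 100.2 FPKM in 72 h kd, above every other library. In 240 h ctrl it was at 38.7, 41.1 and 47.3 FPKM and in 240 h kd at 33.1, 35.3 and 34.8, below all controls. Its log2 fold change was -0.12 at 48 h (limma adjusted p = 0.406, SE 0.09). There it was -0.0471 without 48 h kd replicate 2 (adjusted p = 0.697) and -0.18 without 48 h ctrl replicate 1 (adjusted p = 0.252). It was 1.06 at 72 h (adjusted p = 0.000122, SE 0.06, called) and -0.30 at 240 h (adjusted p = 0.0369, SE 0.08, under the fold threshold). With 1 library left out the adjusted p at 240 h ran from 0.0252 to 0.105, and was over 0.05 without 240 h ctrl replicate 2 or any 1 of the 240 h kd libraries.

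Lefty2 was at 42.5, 44.1 and 42.8 FPKM in 48 h ctrl and at 35.7, 32.6 and 33.8 in 48 h kd. It was at 55.0, 57.5 and 61.4 FPKM in 72 h kd. In 240 h ctrl it was at 44.0, 46.9 and 47.3 FPKM and in 240 h kd at 25.6, 25.4 and 25.8. The kd libraries were thus below the controls at 48 h, above them at 72 h and below them again at 240 h, with no overlap at any of these times. The log2 fold change was -0.34 at 48 h (limma adjusted p = 0.00967, SE 0.05, adjusted p = 0.055 without 48 h ctrl replicate 2), 0.42 at 72 h (adjusted p = 0.00088, SE 0.05), both under the fold threshold, and -0.84 at 240 h (adjusted p = 0.000117, SE 0.04, called). The effect at 240 h was below that at 48 h by 0.50 on the log2 scale (95% CI 0.37 to 0.63 in size, adjusted p = 0.000334).

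Within the knockdown, with no control involved, Lefty1 and Lefty2 were the 2 of 8 members called between 48 h and 72 h, both higher at 72 h, by 1.18 (limma adjusted p = 0.000899, SE 0.07) and 0.76 (adjusted p = 0.00129, SE 0.06) on the log2 scale, where 4.17% of all genes were called higher. They were also the 2 called between 72 h and 240 h, where Lefty1 fell by 1.50 (adjusted p = 1.79e-05, SE 0.04) and Lefty2 fell by 1.17 (adjusted p = 3.96e-05, SE 0.04), and 9.29% of all genes were called lower. A direct test of the effect at 240 h minus that at 72 h, with the 48 h ctrl as the control of 72 h, was added after these values were seen and called the same 2 members, Lefty1 at -1.36 (adjusted p = 1.5e-05, SE 0.11) and Lefty2 at -1.27 (adjusted p = 9e-07, SE 0.06), with 6.73% of all genes called in that direction. On the adjusted p alone 6 members and 40.1% of all genes passed. For 240 h minus 48 h none of the 8 members was called, although 3 passed on the adjusted p alone, Lefty2, Nodal and Apela, where 5.82% of genes were called and 15.6% passed on the adjusted p alone. The time of 72 h moved with other values too. Primed epiblast markers, 5 genes, summed to 8.54 to 8.95 FPKM there, to 14.1 to 15.3 after 48 h of knockdown and to 22.9 to 24.3 after 240 h. The earlier controls had 18.0 to 18.8 FPKM of them and the later ones 16.5 to 17.3. Of these genes 3 to 4 were above 0.5 FPKM and none was at 0 in every library. At 240 h Fgf5, Dnmt3b, Otx2 and Sox3 were higher, at ratios of 4.13, 1.87, 1.40 and 1.25, and Pou3f1 was lower, at 0.875, all without overlap. Trophoblast markers, 5 genes of which 1 to 2 were above 0.5 FPKM, summed to 16.4 to 17.0 FPKM at 72 h and to 12.4 to 12.9 FPKM in the knockdown of 240 h. In 48 h kd the sum was 5.57 to 6.01 FPKM, below the 8.455 to 9.277 FPKM of 48 h ctrl. Tfap2c fell there by 0.61 on the log2 scale (limma adjusted p = 0.00268). In 240 h ctrl the sum was 7.10 to 7.80 FPKM. At 72 h this sum rested on Tfap2c, which is not limited to trophoblast and rose by 0.92 on the log2 scale (limma adjusted p = 5.85e-05), whereas the ratios to 48 h ctrl were 2.31 for Cdx2, 0.975 for Elf5, 0.877 for Hand1 and 0.829 for Gata3, all with overlap and all at under 0.2 FPKM. At 240 h the ratios to the control were 8.75 for Hand1, 4.69 for Cdx2, 2.02 for Gata3 and 1.57 for Tfap2c, without overlap, and 1.88 for Elf5, with overlap. Their part in the Lefty values was not tested, and fewer cells of a type and less RNA per cell cannot be told apart in bulk RNA.

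The 2 Lefty genes did not keep a fixed proportion. The ratio of Lefty1 to Lefty2 FPKM is used here only to compare libraries with each other, since its size depends on the gene spans and does not say which gene is more abundant. It was 1.08 ± 0.0747 in the 48 h ctrl cells and 0.920 ± 0.0708 in those of 240 h. In the knockdown it was 1.26 ± 0.0709 after 48 h, 1.68 ± 0.0463 after 72 h and 1.34 ± 0.0467 after 240 h (SD, n = 3 for each value). The ratio was higher in each kd library than in each library of its control at all 3 times. The difference was 0.178, 0.598 and 0.424 at 48 h, 72 h and 240 h, each with an exact two-sided permutation p of 0.1, the smallest that 3 against 3 libraries allow.

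**Figure D3:**
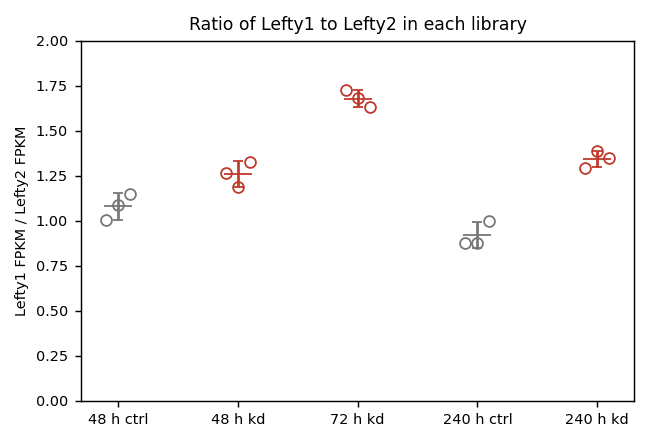
Ratio of Lefty1 to Lefty2 FPKM in each library (open circles) with mean and SD of 3 libraries, grey for ctrl and red for kd. The kd groups lie above their controls, from 1.26 in 48 h kd to 1.68 in 72 h kd, against 1.08 and 0.920 in the controls.

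Smad7 (ENSMUSG00000025880.11, chr18:75367529-75395935, plus strand) is an inhibitory Smad that blocks the receptors from inside the cell. It was at 3.16, 3.26 and 3.07 FPKM in 48 h ctrl, at 2.79, 3.30 and 2.95 in 48 h kd and at 2.15, 2.33 and 2.35 in 72 h kd. In 240 h ctrl it was at 2.90, 2.82 and 2.42 FPKM and in 240 h kd at 2.57, 2.62 and 2.78. Its 72 h kd libraries were the lowest of all, and the groups of 48 h and of 240 h overlapped. It was the single member that was lower at 72 h, with a log2 fold change of -0.46 (limma adjusted p = 0.000676, SE 0.05), under the fold threshold, and of -0.24 with the 240 h ctrl as control (adjusted p = 0.0426). The log2 fold change was -0.07 at 48 h (95% CI -0.24 to 0.10, adjusted p = 0.523) and -0.03 at 240 h (95% CI -0.21 to 0.16, adjusted p = 0.821). Without 48 h kd replicate 2 the former was -0.13 (adjusted p = 0.123), and without 48 h kd replicate 1 it was -0.0194 (adjusted p = 0.86). Without 240 h ctrl replicate 3 the latter was -0.10 (adjusted p = 0.159), and without 240 h ctrl replicate 1 it was 0.0218 (adjusted p = 0.856).

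Apela encodes a small secreted peptide, also called Elabela or Toddler, that was found as a regulator of mesendoderm cell movement and signals through the apelin receptor Aplnr. It was at 6.45, 6.72 and 6.50 FPKM in 48 h ctrl and at 12.1, 12.4 and 12.1 in 48 h kd. It was at 17.5, 16.7 and 16.9 FPKM in 72 h kd, at 5.50, 5.63 and 5.36 in 240 h ctrl and at 12.1, 12.03 and 11.7 in 240 h kd. The kd libraries were separate from the controls at all 3 times, and 72 h kd was the highest group. The log2 fold change was 0.88 at 48 h (limma adjusted p = 0.000832, SE 0.04), 1.36 at 72 h (adjusted p = 1.35e-05, SE 0.03) and 1.10 at 240 h (adjusted p = 5.72e-05, SE 0.03), all called. The effect at 240 h exceeded that at 48 h by 0.22 (95% CI 0.12 to 0.32, adjusted p = 0.00773). The deposited values do not separate reads of Apela from those of Gm45886, which covers most of its span. Apela had 610 to 1999 reads per library and Gm45886 619 to 2062. The receptor Aplnr had 0 reads in 13 of 15 libraries and 1 read in each of the others, and its second ligand Apln was at 0.0911 to 0.394 FPKM. Ratios of Apln to the control were 1.98 at 48 h and 1.74 at 240 h, without overlap, and 0.789 at 72 h, with overlap.

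Another 52 genes of the pathway, in lists of ligands, receptors, transducers, convertases, inhibitors and targets, were followed beside the members. Of these, 19 at 48 h and 20 at each of 72 h and 240 h passed the minimum of 0.5 FPKM. In limma 1 rose and none fell at 48 h, 3 rose and 1 fell at 72 h, and 2 rose and 2 fell at 240 h, and the other tested genes were not called. Of all genes, 1.99% rose and 2.01% fell at 48 h, 8.23% and 5.30% at 72 h, and 4.79% and 4.12% at 240 h. The median log2 fold changes of the listed genes were 0.02, 0.22 and 0.06, beside 0.0057, 0.009 and -0.0016 over all genes. Of the 10 intracellular inhibitors tested, Smad7 included, 1 rose, Smurf1 at 72 h, which passed the minimum through the 72 h kd libraries. The receptor kinase Tgfbr1 and the transducers Smad2 and Smad4 moved by at most 0.14 in either direction and were not called at any time, and the convertase Furin was at 0.577 at 72 h (adjusted p = 0.00122), just under the fold threshold.

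Inhbb, the beta subunit of activin B and inhibin B, moved furthest among these genes. It was at 12.6, 12.7 and 11.96 FPKM in 48 h ctrl and at 12.4, 14.1 and 13.4 in 48 h kd. It was at 4.11, 4.42 and 4.47 FPKM in 72 h kd, at 13.6, 13.7 and 13.7 in 240 h ctrl and at 2.06, 1.69 and 1.56 in 240 h kd. The groups overlapped at 48 h and were far apart at the later times, in the direction opposite to Nodal. Its log2 fold change was 0.10 at 48 h (limma adjusted p = 0.344, SE 0.06), -1.50 at 72 h (adjusted p = 2.96e-05, SE 0.04) and -2.89 at 240 h (adjusted p = 6.33e-05, SE 0.10). The other activin subunit examined, Inhba, had at most 3 reads in a library.

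Gdf1, a ligand that forms dimers with Nodal, rose at all 3 times, with log2 fold changes of 0.73 (adjusted p = 0.0179), 1.04 (adjusted p = 0.000247) and 0.68 (adjusted p = 0.012) in limma. The 48 h ctrl cells held 7.14 ± 0.708 FPKM of it and the 240 h ctrl cells 6.65 ± 0.997, while the knockdown held 11.97 ± 1.69 after 48 h, 14.7 ± 0.592 after 72 h and 10.7 ± 1.10 after 240 h (SD, n = 3 for each value). Its span overlaps those of Cers1 and Upf1, so its reads may belong in part to those genes. At 48 h its adjusted p rose to 0.0646 or 0.0697 without 48 h ctrl replicate 1 or 2 and to 0.0541 or 0.0627 without 48 h kd replicate 1 or 3, and at 240 h its log2 fold change was 0.56 without 240 h ctrl replicate 1, under the threshold. Foxh1, the DNA-binding partner of the Smads, rose at 72 h by 0.67 (adjusted p = 0.000165, SE 0.04) and at 240 h by 0.65 (adjusted p = 0.00137, SE 0.07) on the log2 scale, reaching 24.5 ± 0.868 and 25.6 ± 0.966 FPKM where the controls had 15.3 ± 0.615 and 16.3 ± 1.31. Acvr1b, the type I receptor also called ALK4, fell at 240 h by 0.63 on the log2 scale (adjusted p = 0.00665, SE 0.10), from 1.49 ± 0.183 to 0.926 ± 0.0657 FPKM, and without replicate 1 of 240 h ctrl or of 240 h kd its change of -0.58 was just inside the threshold. At 72 h it was 0.27 higher (adjusted p = 0.00162), under the fold threshold. Smurf1, a ubiquitin ligase that acts on receptors and Smads, rose at 72 h by 0.68 (adjusted p = 0.000438, SE 0.06), from 0.473 ± 0.0134 to 0.818 ± 0.0201 FPKM, and with the 240 h ctrl as control its difference was 0.54, under the threshold. Its control mean lay under the minimum of 0.5 FPKM, so it entered this test through the 72 h kd libraries. On recovered reads, where it passed the minimum in every library, its difference was 0.79 (limma voom adjusted p = 3.91e-12).

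**Figure D4:**
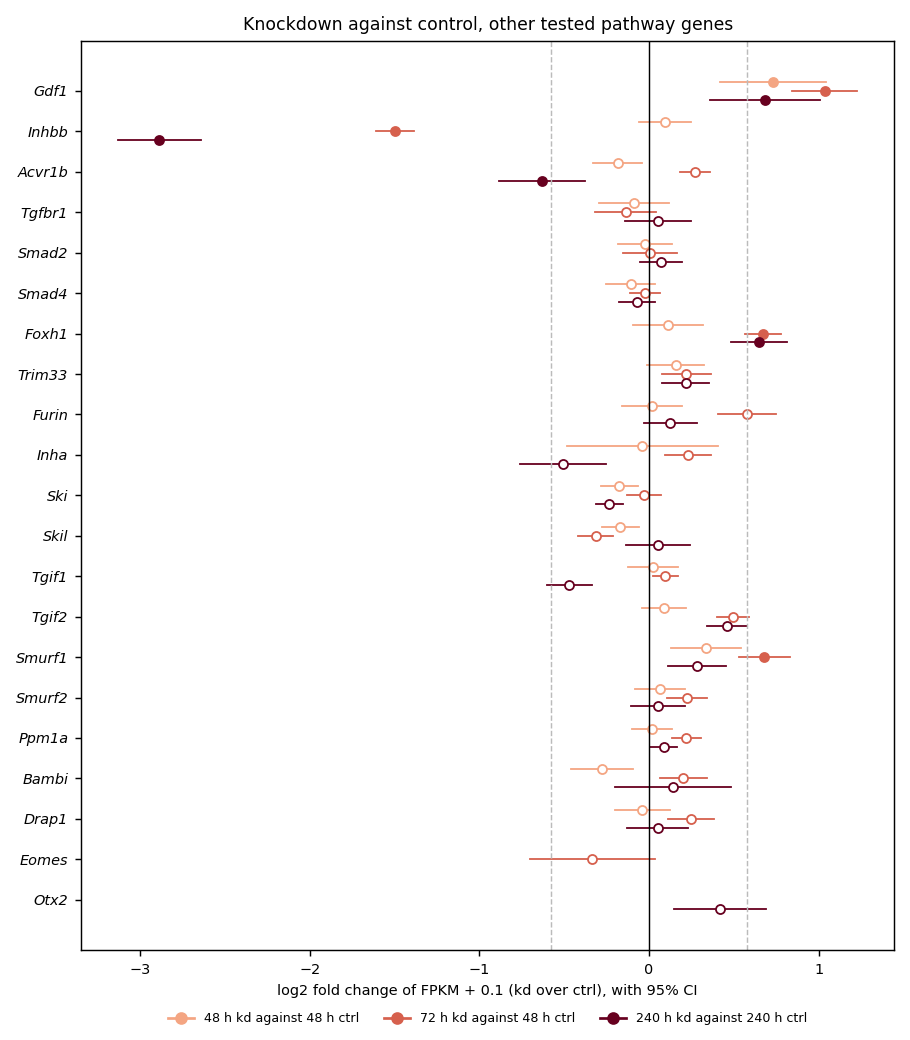
Log2 fold change (FPKM + 0.1) of the other pathway genes that passed 0.5 FPKM, for kd over ctrl at 48 h, 72 h and 240 h, with 95% confidence intervals from limma; filled points were called and dashed lines mark a log2 fold change of 0.58 in either direction. Inhbb is the gene furthest from 0, at -2.89 for 240 h, and most of the others lie between the dashed lines.

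Because the minimum in FPKM leaves out long genes with many reads, the lists were also tested on recovered reads with limma voom, where 38 of the 52 genes were tested at 48 h and at 72 h and 39 at 240 h. By this test 2 rose and 6 fell at 48 h, where 4.28% of 16108 genes rose and 4.94% fell. At 72 h, 8 rose and 6 fell, beside 12.4% and 10.2% of 16146 genes, and at 240 h, 8 rose and 8 fell, beside 9.87% and 8.15% of 16633 genes. The following 3 genes were named after their values were seen. Pmepa1, a target and inhibitor of Smad signalling, fell by 1.36, 1.46 and 1.89 on the log2 scale (adjusted p = 6.71e-06, 1.72e-11 and 2.32e-10), with 224 to 334 reads in the ctrl libraries and 80 to 110 in the kd libraries. Smad6, an inhibitory Smad mainly of BMP signalling, rose at 72 h by 0.85 (adjusted p = 2.83e-06) and at 240 h by 1.69 (adjusted p = 5.93e-09). Otx2, a homeobox gene of the primed epiblast and a Nodal target in the embryo, fell by 1.72 at 48 h (adjusted p = 1.1e-05) and by 1.89 at 72 h (adjusted p = 1.18e-10), and at 240 h its difference was 0.48 (adjusted p = 0.00321), under the fold threshold. Of the 10 targets and mesendoderm genes, 4 had enough reads to be tested. The summed mesendoderm markers were between 0.748 and 1.33 FPKM over all libraries, and Cer1 had no read in any of the 15.

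Members were also compared with all genes by their pattern over the 15 libraries, as Pearson's r of log2(FPKM + 0.1), among 7295 named genes. These values are descriptions, since libraries of a group share their condition. The genes most like Nodal were Ash2l at 0.98 and Calcoco1 at 0.98, and those most like Apela were Arl4a at 0.99 and Homer3 at 0.99. Mpnd and Dnpep were most like Lefty1 at 0.98 each, and St14 and Nono most like Lefty2 at 0.97 each. For Tdgf1 these were Ung at 0.98 and Tspan17 at 0.97, for Gdf3 Trap1 at 0.98 and Ghitm at 0.97, for Smad7 Med21 at 0.94 and Zranb2 at 0.93, and for Acvr2b Map4 at 0.92 and Nbeal2 at 0.91. Among the members themselves the r was 0.88 for Nodal and Apela, 0.90 for Tdgf1 and Apela, 0.82 for Lefty1 and Lefty2, 0.38 for Nodal and Lefty1 and -0.16 for Nodal and Lefty2.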

How the data were processed

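RNA-seq of 15 mESC libraries (5 groups of 3) was analysed, with groups from the sample labels. The authors aligned single-end reads to mm10 (GRCm38.p6) with STAR 2.7.0c, obtained gene counts in R and used DESeq2 1.30.0 in R 4.0.3, per the labels and the study's methods. The deposited FPKM values, 1 per gene and library, divide by the whole gene span; the annotation behind them is not given in the sources used here, where the study names a later GENCODE release for its peak assignment only, and M21 was the release at hand. With 1 total per library, 100% of values above 0 were whole reads (tolerance 0.001). Of 55228 genes, 53297 (96.5%) matched GENCODE M21. Reads summed over genes exceeded the totals by 7.38% to 8.34%, so some were counted for more than 1 gene, and values of overlapping genes are uncertain.

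FPKM are not counts, so limma 3.58.1 in R 4.3.3 (eBayes with trend) served as the two-sided test of log2(FPKM + 0.1), for every gene whose mean reached 0.5 FPKM in the fit (6 libraries, or 12 for differences between times). All adjusted p-values are from limma, by the Benjamini-Hochberg method over all genes tested. Called means an adjusted p under 0.05 and a log2 fold change beyond 0.58. Fold changes on the log2(FPKM + 0.1) scale understate changes of low genes. Limma voom used recovered reads with a mean of at least 10. The tests were run on simulated data, drawn with the same dispersion for all genes and libraries. That check does not cover libraries that stand apart from their group, as some did here.

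The members and lists were chosen with earlier results of these data known. Named genes are the 8 members, Smarcb1, the 5 other listed genes called in any knockdown comparison (of up to 12 allowed, by size), and the 2 genes most like each member. Further listed genes and markers given by name were chosen after their values were seen. Shared windows were counted in GENCODE M21 transcripts. Promoter sequences came from RefSeq (4 of 8 members used, with chr18, where Smad7 lies, left out). Coding sequences of the members are not reported here. Same-numbered libraries did not deviate together (r between -0.099 and 0.119). Plots used matplotlib 3.10.9 in Python 3.11.15, and permutation tests scipy 1.17.1. The study's chromatin measurements were not analysed here. Counting error alone is covered by read numbers, as reads carry no molecular identifiers.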

Additional observations from a re-analysis of the deposited data

Results flagged for a closer look

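The knockdown effect differed between times in a direct test (limma, adjusted p under 0.05) for the following members and other pathway genes, given as differences of log2 fold changes and with no explanation. At that threshold 15.6% of all genes passed for 240 h minus 48 h and 40.1% for 240 h minus 72 h. For 240 h minus 48 h these were Inhbb at -2.98 (adjusted p = 7.89e-07), Otx2 at 1.78 (adjusted p = 0.000115), Lefty2 at -0.50 (adjusted p = 0.000334), Nodal at 0.35 (adjusted p = 0.013), Foxh1 at 0.53 (adjusted p = 0.0104), Tgif1 at -0.49 (adjusted p = 0.00318), Tgif2 at 0.37 (adjusted p = 0.00639), Acvr1b at -0.45 (adjusted p = 0.0333, and 0.067 without 48 h kd replicate 2) and Apela at 0.22 (adjusted p = 0.00773). Inhbb and Otx2 were also past the fold threshold. Otx2 was under the minimum of 0.5 FPKM in the 48 h and 72 h comparisons. It therefore entered this difference, and the one below, through the 240 h libraries.

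For 240 h minus 72 h, with the 48 h ctrl as control of 72 h and so with the age of the control differing, Otx2 was at 1.90 (adjusted p = 8.18e-06), Inhbb at -1.39 (adjusted p = 1.91e-05), Lefty2 at -1.27 (adjusted p = 9e-07), Lefty1 at -1.36 (adjusted p = 1.5e-05), Acvr1b at -0.90 (adjusted p = 0.000203) and Inha at -0.73 (adjusted p = 0.00108), all past the fold threshold. Differences under that threshold were those of Tgif1 at -0.57 (adjusted p = 9.58e-05), Furin at -0.45 (adjusted p = 0.0049), Skil at 0.36 (adjusted p = 0.00992), Ski at -0.20 (adjusted p = 0.008), Ppm1a at -0.13 (adjusted p = 0.0333), Smad7 at 0.43 (adjusted p = 0.00477), Smurf1 at -0.40 (adjusted p = 0.00224), Gdf3 at -0.30 (adjusted p = 0.0139), Apela at -0.26 (adjusted p = 0.00108) and Acvr2b at -0.27 (adjusted p = 0.0131). Both tests share the 240 h libraries and the 48 h ctrl libraries.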

How the results depend on the processing

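Genes called moved by more than 1.5 times under several alternatives, given in the order 48 h, 72 h and 240 h knockdown, 240 h ctrl against 48 h ctrl, 72 h kd against 48 h kd, 240 h kd against 72 h kd, and effect at 240 h minus 48 h and minus 72 h, against 456, 1548, 1016, 54, 857, 1803, 664 and 1258. A pseudocount of 1 FPKM gave 208, 745, 541, 27, 365, 882, 333 and 619. A minimum of 2 FPKM gave 208, 768, 453, 32, 407, 888, 324 and 621. Limma voom on recovered reads gave 1485, 3642, 2998, 220, 2101, 4201, 1708 and 2970. No fold threshold gave 1844, 6290, 3848, 391, 4081, 6820, 1778 and 4578, and members called then were 3, 8, 5, 2, 6, 6, 3 and 6. Without an FPKM minimum the counts that moved were 2500 at 72 h, 1768 at 240 h, 2841 for 240 h kd against 72 h kd, and 1051 and 1984 for the differences of effects. With a minimum of 10 reads they were 720 at 48 h, 1656 at 240 h, and 1123 and 1921 for the differences. The drift between controls gave 168 with TPM, 100 with 1 fit of all 15 libraries, 31 without a trend and 2 to 10 with a library left out. The cause was not tested, beyond the tested genes and samples each setting changes by construction.

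With the replicate block, genes called were 285 at 48 h and 0 between the controls, and no member's call changed. No member call was lost under any alternative or with any library left out, including 48 h kd replicate 2. Beside the setting without a fold threshold, calls were gained by Gdf3 at 72 h with the 240 h ctrl (0.58) and by Nodal for 72 h kd against 48 h kd with TPM (0.61). Of 1320 values of members under alternatives, 1270 kept sign and call, 28 gained a call and 22 changed sign, none of them called. Signs changed with TPM for Gdf3 (0.0084) and Tdgf1 (0.0814, and 0.0554 with quantile normalization) between controls, Nodal for 240 h kd against 72 h kd (0.0307), and Gdf3 (0.0195) and Acvr2b (0.0258) for 240 h minus 48 h. For the same difference Acvr2b was at 0.0277 with quantile normalization, 0.0027 with median centring and 0.004 with a pseudocount of 1. TPM shifts all genes by 0.112 on the log2 scale between the controls and by -0.041 to 0.083 in the other comparisons of groups. With a library left out, Smad7 ranged from -0.1033 to 0.0218 at 240 h, and for 240 h minus 48 h Smad7 from -0.0328 to 0.109, Gdf3 from -0.1164 to 0.0568 and Acvr2b from -0.1143 to 0.0547. Of the other pathway genes, calls given in the report were lost with a library left out for Gdf1 at 48 h and 240 h and Acvr1b at 240 h, and with a pseudocount of 1 for Acvr1b at 240 h (-0.37) and Smurf1 at 72 h (0.30), and for 240 h minus 72 h Acvr1b (-0.55) and Inha (-0.47).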
